A study of Homo sapiens with 2 samples.

Results

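The p53 tumour suppressor network was described in J82 through 9 genes: MDM2 and MDM4, which restrain p53, and the p53-responsive genes TP53INP1, SESN1, ZMAT3, BTG2, PLK3, GDF15 and GADD45A. The genes were chosen by name, and a gene was read only from probe sets that the platform annotation pairs with that symbol alone. By this rule 7 of the 9 genes were measured, each by 1 probe set, out of 14232 genes named in the same way. No probe set is annotated with BTG2, an antiproliferative gene, in the annotation used here. GDF15, which encodes a secreted stress cytokine, shares its probe set with a microRNA symbol, so no value is given for either gene under its own name.

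J82 is a widely used cell line from a human bladder cancer. The cells were untreated, grown in DMEM with serum, stained with the DNA dye Hoechst and sorted by flow cytometry into a side population (SP), which retains little dye, and a non-side population (NSP), which retains it. Total RNA from 1 SP sample and 1 NSP sample was hybridised to 1 human exon array each, and the question is which transcripts differ between the cells that exclude the dye and those that keep it. With 1 sample for each population there is no error between samples and no test, so every difference below describes these 2 arrays, and fewer cells with a transcript cannot be told apart from less transcript in each cell.

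p53 is a transcription factor that is stabilised by DNA damage and other stresses and turns on genes for growth arrest, repair, altered metabolism and cell death. MDM2 is both a target of p53 and the ubiquitin ligase that marks p53 for destruction, which closes a negative feedback loop, and its relative MDM4 binds p53 and blocks its activity. Many p53 targets are also switched on by other stress and growth signals, so their RNA is not a measure of p53 alone.

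The start-site sequences are shown first because MDM2 is the classical example of this feedback at the DNA level. RefSeq windows (GRCh38.p14) of 250 bases before a transcription start were found for 7 of the 9 genes, 13 windows in all. They were searched for the 10-base p53 half-site consensus, which reads the same on both strands. A pair of directly adjacent half-sites with at most 1 mismatch in each, none of them in the fixed C and G, occurred in 2 of the 13 windows, both of MDM2 and overlapping each other. Such a pair occurred in 0.14% of all 35116 windows. The MDM2 window is printed for this pair, which is in capitals and lies 94 to 75 bases before the start (chr12:68808767-68809016, plus strand).
MDM2: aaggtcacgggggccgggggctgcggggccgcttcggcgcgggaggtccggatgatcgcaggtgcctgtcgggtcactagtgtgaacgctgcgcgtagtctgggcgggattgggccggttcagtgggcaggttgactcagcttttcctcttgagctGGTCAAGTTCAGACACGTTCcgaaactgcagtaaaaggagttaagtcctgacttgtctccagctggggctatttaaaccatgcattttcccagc

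An exact half-site was found in 1 of the 13 windows, that of the most downstream of 3 SESN1 starts, against 5.57% of all windows. It is shown in capitals with 10 bases on either side (chr6:109009018-109009047, minus strand).
SESN1: attgtcgtctGGACAAGTCTccacaagtca

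The window of PLK3, which held neither form, is printed as a contrast, because PLK3 had one of the larger differences among the genes described here (chr1:44800127-44800376, plus strand).
PLK3: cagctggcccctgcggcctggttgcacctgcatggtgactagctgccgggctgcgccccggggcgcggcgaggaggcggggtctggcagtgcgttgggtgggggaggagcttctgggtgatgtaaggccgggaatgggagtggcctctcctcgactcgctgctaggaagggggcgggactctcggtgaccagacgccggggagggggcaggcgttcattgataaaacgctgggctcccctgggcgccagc

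The search covers these letters in these windows only, and response elements further away, for example in introns, were not looked for. GADD45A and TP53INP1 are named without a window.

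Signals are log2 values as deposited, and a difference is the SP value minus the NSP value, so that a positive difference means a higher value in SP. The median of all values on both arrays, 7.44, served as a floor: a gene reached the floor if the higher of its 2 values did. A gene that reached the floor was counted when its values differed by 1.5-fold or more (0.58 on the log2 scale). By that rule 3.10% of the 7549 genes reaching the floor counted as higher in SP and 1.43% as lower. The differences of the central 95% of those genes ran from -0.51 to 0.63, with a median of -0.05. Signals of different probe sets are not set against each other, since they depend on the probes.

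The 2 inhibitors of p53 were both higher in SP, MDM2 by more than MDM4. MDM2 had a signal of 9.84 in SP and 9.41 in NSP, a difference of 0.43 or 1.34-fold, which did not reach the 1.5-fold threshold and lay inside the range of the central 95% of genes. There were 428 genes with a larger positive difference, counted like all such ranks here over genes reaching the floor. MDM4 had 8.92 in SP and 8.84 in NSP, a difference of 0.08 or 1.06-fold, and 2127 genes were further up. All 4 values lay well above the floor. The array values do not separate MDM2 transcripts from the start with the paired half-site and those from the upstream start.

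Among the growth-arrest genes, GADD45A and PLK3 were higher in SP by similar amounts. GADD45A encodes a stress sensor that binds cell cycle kinases and repair factors, and its signal was 9.68 in SP and 8.93 in NSP, a difference of 0.75 or 1.68-fold. For comparison, 121 genes were further up. PLK3, a stress-responsive kinase of the polo-like family, had 9.86 in SP and 9.13 in NSP, a difference of 0.73 or 1.66-fold, with 132 genes further up. Both genes lay outside the central 95% range and well above the floor on each array.

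TP53INP1 and ZMAT3 had lower values in SP. TP53INP1 encodes a p53-induced nuclear protein that acts in cell death, arrest and autophagy. Its signal was 7.42 in SP and 8.29 in NSP, a difference of -0.87 or 1.82-fold lower in SP, and 19 genes were further down. The SP value lay just under the floor, by 0.02 on the log2 scale, so this difference runs from a clear signal in NSP to a dim one in SP, and it does not count if both values have to lie at the floor or higher. ZMAT3, an RNA-binding zinc finger protein, had 7.95 in SP and 8.32 in NSP, a difference of -0.37 or 1.29-fold lower in SP, with 545 genes further down and both values above the floor. SESN1, a sestrin that restrains mTORC1 signalling and oxidative stress, had 5.90 in SP and 5.83 in NSP. Both SESN1 values lay more than 1.5 below the floor, at which level its difference of 0.07 cannot be read.

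**Figure D1:**
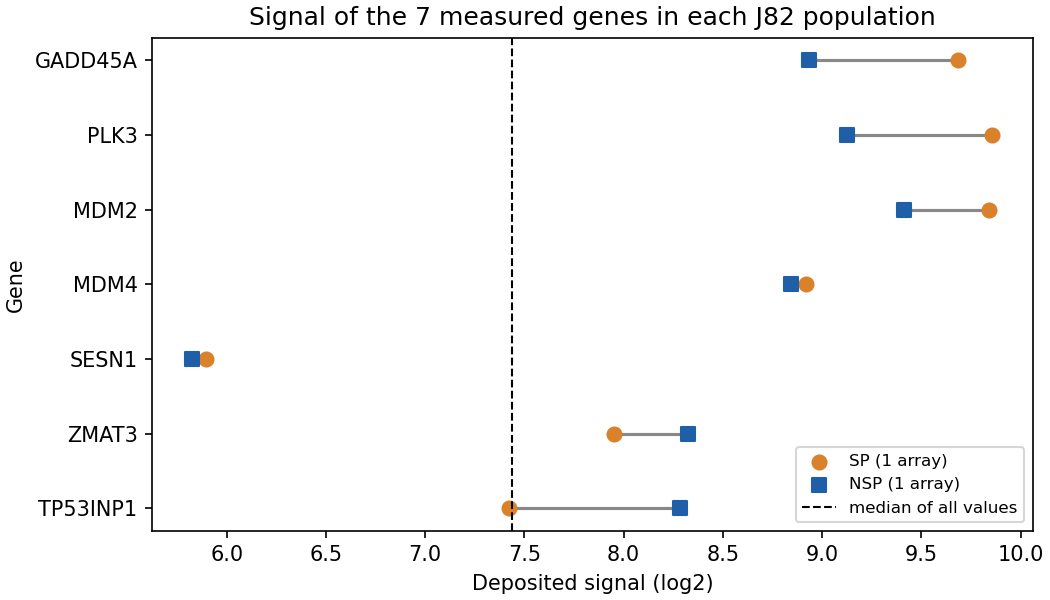
Deposited log2 signal (horizontal axis) of the 7 measured genes (vertical axis) in SP (circles) and NSP (squares), 1 array each and hence no error bars, with the median of all values as a dashed line. GADD45A, PLK3 and MDM2 lie to the right in SP, TP53INP1 and ZMAT3 to the left, MDM4 and SESN1 have nearly the same value in both, and SESN1 lies under the dashed line.

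Of the 6 genes reaching the floor, 2 passed 1.5-fold with the higher value in SP (GADD45A and PLK3) and 1 with the higher value in NSP (TP53INP1), where 3.10% and 1.43% of all such genes did. The median difference was 0.25 over these 6 genes and 0.08 over all 7 measured. Of the 7 genes, 5 were higher and 2 lower in SP, where 49.2% of all 14232 genes were higher. The 5 include SESN1, which lay under the floor and cannot be read, and MDM4, with a difference of only 0.08. The 9 genes were chosen with earlier results of these data known, so these counts are a description and nothing is read from their size against the background. None of the 7 genes reached 2-fold, a size that 0.609% of genes reaching the floor had upward and 0.119% downward. With a threshold of 0.32 on the log2 scale MDM2 and ZMAT3 counted too, making 3 genes higher and 2 lower, beside 8.57% and 10.7% of all genes.

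**Figure D2:**
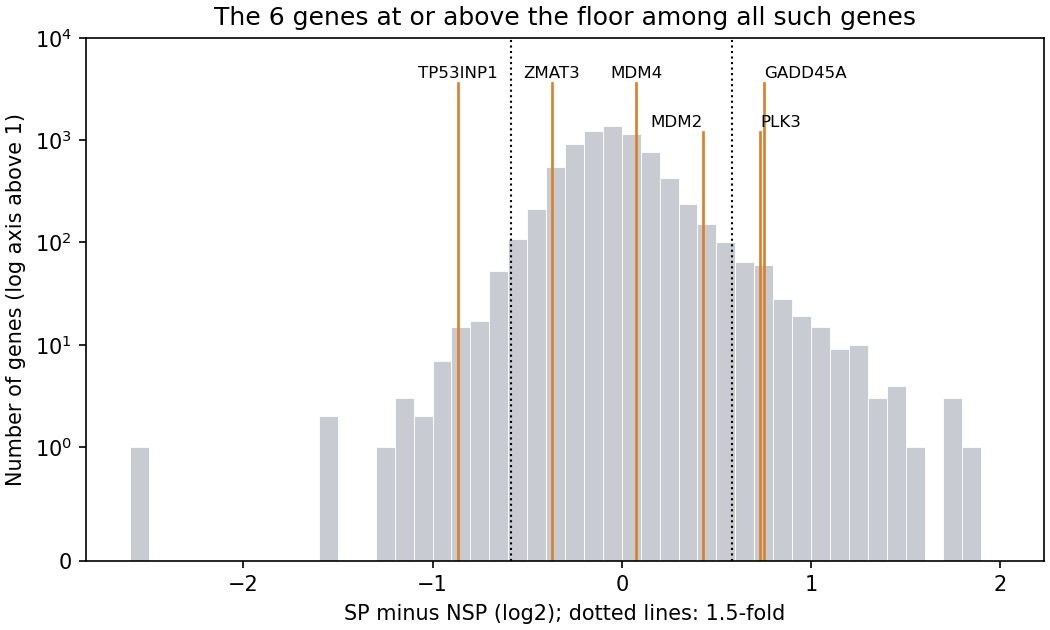
Number of genes (vertical axis, logarithmic above 1) by SP minus NSP difference in bins of 0.1 (horizontal axis, log2) for the 7549 genes reaching the floor, with the 6 described genes that reached it as vertical lines and 1.5-fold as dotted lines. TP53INP1 (-0.87), PLK3 (0.73) and GADD45A (0.75) lie in the tails, and MDM4 (0.08), ZMAT3 (-0.37) and MDM2 (0.43) lie within the dotted lines.

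The relatives of these genes were read next, since family members share functions and not always regulation. In the GADD45 family the 3 genes had differences of opposite sign. GADD45B had 8.76 in SP and 9.19 in NSP (-0.43) and GADD45G 7.52 and 7.73 (-0.20), against 0.75 for GADD45A. Neither of the lower values reached 1.5-fold.

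Of the polo-like kinases, PLK2 and PLK3, which answer to stress and growth signals, both passed 1.5-fold upward. Of all genes reaching the floor, 3.10% did. PLK2, also a p53 target, had the larger difference, with 11.19 in SP and 10.03 in NSP (1.16, or 2.23-fold). The mitotic kinase PLK1 had 10.08 in SP and 10.33 in NSP (-0.25), and PLK4, the centriole duplication kinase, lay under the floor (0.18).

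TP53INP2, an autophagy protein, differed in the same direction as TP53INP1 but by less, with 9.06 in SP and 9.26 in NSP (-0.20). SESN2 was the only sestrin to reach the floor, with 8.35 in SP and 8.59 in NSP (-0.24), and SESN3 had a difference of -0.17 under it. All 4 measured ZMAT genes were lower in SP, as were 7046 of all 14232 genes. Only ZMAT3 and ZMAT2 (-0.12) reached the floor, and ZMAT1 (-0.48) and ZMAT4 (-0.09) did not. Of all genes reaching the floor, 59.6% were lower. Of the relatives of BTG2, the antiproliferative genes BTG3 (-0.39), TOB1 (-0.09) and TOB2 (-0.44) were lower in SP, none by 1.5-fold, and BTG4 (0.06) lay far under the floor. BTG1 was covered only by a probe set shared with LINC01619, which was higher in SP, with 11.04 there and 10.54 in NSP (0.50).

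**Figure D3:**
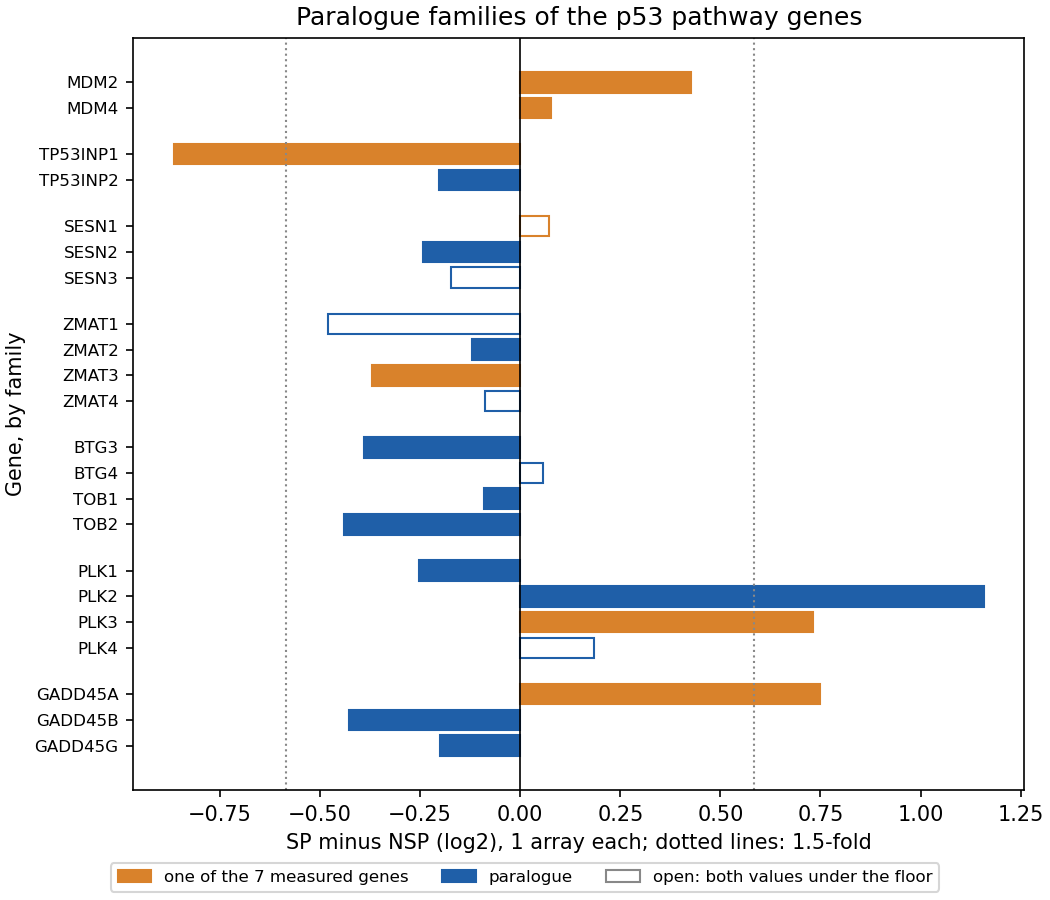
SP minus NSP difference (horizontal axis, log2, 1 array for each population) of each measured gene of 7 families (vertical axis), with 1.5-fold as dotted lines and open bars for genes with both values under the floor. PLK2 and PLK3 extend past the dotted line to the right, as GADD45A does while GADD45B and GADD45G lie to the left, and TP53INP1 extends past the dotted line to the left.

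The wider pathway was described through lists by role. Of 82 p53 targets listed, 70 were measured and 47 reached the floor. Of those 47, 5 passed 1.5-fold upward in SP and 5 downward, 10.6% each way, against 3.10% and 1.43% of all genes. The list was put together with earlier results known, and nothing is read from the gap. Without the 9 genes named at the outset, 3 of 42 targets were higher (7.14%) and 4 lower (9.52%). The median difference of all 70 measured targets was 0.02, beside 0.00 for all 14232 genes. After removal of a trend on signal level 3 targets passed downward, and the differences of SERTAD1 (-0.57) and ISCU (-0.55) then fell short of 1.5-fold. Over all genes the downward count then went from 108 to 84.

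Of the 5 targets that passed upward, 3 were on the list of cell cycle targets. Among the 9 cell cycle targets reaching the floor, PLK2, GADD45A and PLK3 passed 1.5-fold upward, where 3.10% of all such genes did. TP53INP1 and SERTAD1 passed it downward, where 1.43% of all such genes did. SERTAD1, a regulator of cell cycle kinase and E2F activity, is named because it passed the threshold. SERTAD1 had 8.12 in SP and 8.75 in NSP (-0.62). CDKN1A, which encodes the CDK inhibitor p21 and is the best known arrest target of p53, had 8.95 in SP and 8.73 in NSP, a difference of 0.23 or 1.17-fold, which did not reach the threshold. GADD45A, PLK3 and CDKN1A had the same sign, with a smaller difference in CDKN1A. Of the 9 cell cycle targets reaching the floor, 5 were higher and 4 lower in SP.

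Of the 12 apoptosis targets reaching the floor, 7 were lower in SP, a share close to that of all genes reaching the floor, of which 59.6% were lower. None passed 1.5-fold upward, and TP53INP1 and PMAIP1 passed it downward, beside 3.10% and 1.43% of all such genes. PMAIP1 encodes NOXA, a BH3-only protein that promotes cell death, and had 9.41 in SP and 10.10 in NSP (-0.69, or 1.62-fold lower in SP). The death receptor gene TNFRSF10B had 10.07 in SP and 9.69 in NSP (0.38), short of 1.5-fold. The median over the 19 measured apoptosis targets was -0.19, and it was -0.12 after removal of the trend and -0.07 with the brightest probe set of each gene. The last value differs through TNFRSF10C alone, the only target of this list with 2 probe sets, which lay under the floor.

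Of the metabolism and autophagy targets, 6 of the 7 that reached the floor had lower values in SP, counting PRKAB1, whose difference of -0.01 turned positive under other scalings, beside 59.6% of all genes reaching it. The 2 that passed 1.5-fold, both downward, where 1.43% of all such genes did, were TP53INP1 and ISCU. ISCU, a scaffold for iron-sulphur clusters, had 9.25 in SP and 9.87 in NSP (-0.62). NADSYN1, an enzyme of NAD synthesis, had a difference of -0.38. The median over the 9 measured genes was -0.23. In the DNA repair and nucleotide list GADD45A alone of 4 genes reaching the floor passed 1.5-fold, upward, where 3.10% of all such genes did. The translesion polymerase gene POLH (-0.48) and the ribonucleotide reductase subunit gene RRM2B (-0.29) were lower by less.

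Genes that feed back on p53 had a median difference of 0.24 over 5 measured members. None reached 1.5-fold, where 3.10% of all genes reaching the floor did upward and 1.43% downward. Of the 5, 4 were higher in SP, beside 49.2% of all genes. TRIM24, a ubiquitin ligase for p53, had 9.41 in SP and 8.84 in NSP (0.56), which passed the threshold after quantile normalisation (0.61) and after removal of the trend (0.63). Among the secreted and surface targets, THBS1, which encodes the matrix protein thrombospondin 1, was 2.04-fold higher (11.70 against 10.67). CD82, a tetraspanin, was 1.57-fold lower (8.20 against 8.85), and the ephrin receptor gene EPHA2 differed by 0.43. Of the remaining targets, TNFAIP8, an inhibitor of apoptosis, was 1.85-fold higher, from an NSP value of 6.65 that lay under the floor to 7.54 in SP. TP53I11 was lower in SP by less than 1.5-fold (-0.57).

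Of 32 regulators of p53 listed, 23 were measured and 19 reached the floor. Only TP53BP2 passed 1.5-fold upward and none passed it downward, beside 3.10% and 1.43% of all genes reaching the floor. TP53BP2 encodes a p53-binding protein of the ASPP family and had 9.50 in SP and 8.79 in NSP (0.71). RPL11, a ribosomal protein that binds MDM2, had a difference of -0.54, and its processed pseudogenes make the probe signal uncertain. The median over the 23 regulators was 0.04.

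Cell cycle genes that p53 is known to lower through p21 were mostly a little lower in SP. Of the 12 that reached the floor, 10 had lower values, counting PRC1, whose difference of -0.05 turned positive under other scalings, and none passed 1.5-fold in either direction. Of all genes reaching the floor, 59.6% were lower in SP, and 3.10% passed 1.5-fold upward and 1.43% downward. This list too was chosen with earlier results known, and nothing is read from the gap. The cyclin gene CCNB2 (-0.43), the checkpoint kinase gene BUB1 (-0.39) and the survivin gene BIRC5 (-0.35) had the largest differences. BIRC5 is the mean of 2 probe sets, and the brighter one alone gave -0.58, the largest of the list and just short of 1.5-fold.

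**Figure D4:**
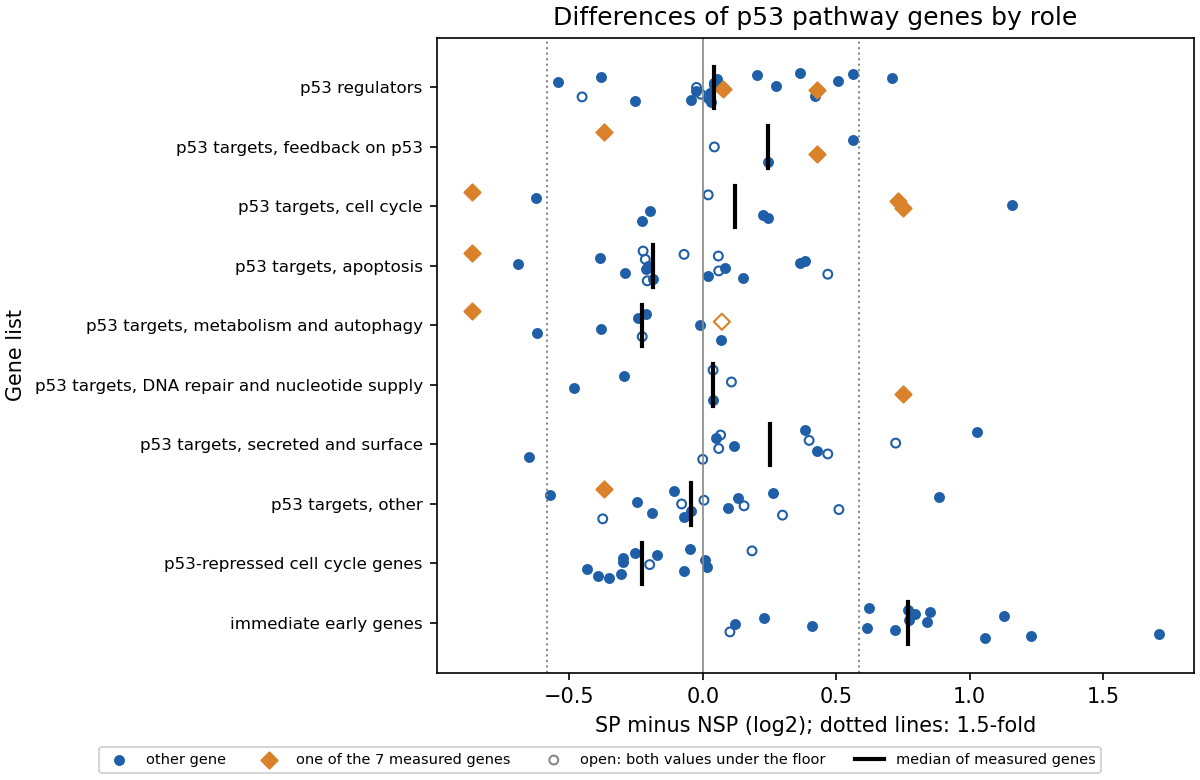
SP minus NSP difference (horizontal axis, log2) of every measured gene in 10 lists (vertical axis), with the described genes as diamonds, open symbols for genes under the floor on both arrays, black bars for list medians and 1.5-fold as dotted lines. The target lists spread to both sides of 0, the p53-repressed cell cycle genes lie mostly to the left within 1.5-fold, and the immediate early genes lie to the right of 0.

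Immediate early genes, which answer within minutes to growth factors and stress, had higher values in SP, as GADD45A, PLK3 and MDM2 did. All 16 measured were higher, where 49.2% of all genes were. Of the 15 that reached the floor, 12 passed 1.5-fold upward, where 3.10% of all such genes did. The median difference was 0.77. The list was chosen with earlier results known, and nothing is read from the gap. EGR1 (1.71), DUSP1 (1.23) and KLF4 (1.13) had the largest differences. The part of such a response in the values of the p53 pathway genes was not tested.

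Of 12 urothelial and epithelial markers 5 reached the floor, among them the keratins KRT8 (13.18 in SP, 12.77 in NSP) and KRT18 (10.57 and 10.32). PPARG, a nuclear receptor of luminal urothelium, was the only one of them to pass 1.5-fold (9.20 and 8.50, a difference of 0.69). The junction and adhesion genes CDH1 and EPCAM, the transcription factor gene GATA3 and the 4 uroplakin genes, markers of differentiated urothelium, lay under the floor on both arrays, so the urothelial origin is not visible in them. All 5 mesenchymal markers reached the floor. Among these ZEB2, a transcription factor of epithelial-mesenchymal transition, passed 1.5-fold (9.56 in SP and 8.54 in NSP, a difference of 1.02), whereas FN1 and ZEB1 differed by 0.15 each, and VIM (-0.04) and CDH2 (-0.02) turned positive under other scalings. Of all genes reaching the floor, 3.10% passed 1.5-fold upward, as PPARG and ZEB2 did. The part of these marker differences in the values of the p53 pathway genes was not tested. Of the 4 measured leukocyte markers 2 reached the floor, CD68 (-0.31) and CD14 (0.09), while the pan-leukocyte gene PTPRC was dim at 3.74 and 3.80. None of 4 endothelial and none of 2 erythroid and platelet markers reached the floor.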

How the data were processed

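The authors deposited 1 table of log2 signals for 22011 probe sets on 2 arrays, made with RMA and Partek per the submitters' processing notes. The log2 scale was inferred from RMA and the range of the values. Of the versions, the filters and the array's genome build, each was not given in the sources used here. RMA in general compresses differences of dim probe sets, and 1 array per population limits the precision. The annotation gave 1 symbol for 14432 probe sets, several for 2408 and none for 5171. Symbols were updated through Entrez identifiers in RefSeq (GRCh38.p14), and probe sets of a gene were averaged.

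The 9 genes and the gene lists were chosen with earlier results of these data known. Named were the 9 genes, CDKN1A, measured paralogues, and up to 3 genes per other list with the largest absolute difference at or above the floor. SERTAD1, PRKAB1, TNFRSF10C, PRC1, PTPRC, VIM, CDH2, CDH1, EPCAM, GATA3, the uroplakins, GFRAL, RET and the genes of several-symbol probe sets were named outside that rule, after their values were seen. Alternatives were median centring, quantile normalisation, removal of a lowess trend (span 0.3), the brightest probe set, other floors and other folds. The scripts were tested on simulated data. Python 3.11.15, numpy 2.4.6, pandas 2.3.3, statsmodels 0.14.6 and matplotlib 3.10.9 were used.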

Additional observations from a re-analysis of the deposited data

Results flagged for a closer look

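A signal outside the measured genes came from the probe set annotated jointly with GDF15 and the microRNA gene MIR3189, which the comparisons above do not use because it has more than 1 symbol. Its signal was 10.99 in SP and 10.29 in NSP, a difference of 0.71. The value cannot be assigned to either gene from the annotation.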

How the results depend on the processing

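The differences of the 7 measured genes kept their sign under quantile normalisation and removal of the lowess trend. GADD45A lay between 0.75 and 0.82, PLK3 between 0.73 and 0.80, MDM2 between 0.43 and 0.49 and TP53INP1 between -0.87 and -0.84. Median centring added 0.01 to every difference, too little to change a sign here. The brightest probe set could change nothing, since each of the 7 genes has 1 probe set. At 2-fold the counts over the described genes were 0 higher and 0 lower. With a threshold of 0.32 on the log2 scale 2 were lower, and with the floor required of both values 0 were lower, because the SP value of TP53INP1 lies under it. Of the p53 regulators 2 were higher after quantile normalisation and 2 after removal of the trend, 0 at 2-fold and 6 at the 0.32 threshold, with 2 lower at the 0.32 threshold. Of the p53 targets 2 were higher and 0 lower at 2-fold, 10 higher and 10 lower at the 0.32 threshold, and 3 lower after removal of the trend. Of the p53-repressed cell cycle genes 3 were lower at the 0.32 threshold. Among all genes reaching the floor, 0.609% were higher and 0.119% lower at 2-fold, and 8.57% and 10.7% at the 0.32 threshold. Counts over all genes were 234 higher and 108 lower at 1.5-fold as deposited. They were 263 and 92 after quantile normalisation, and 282 and 84 after removal of the trend. Apart from the fold and floor settings, the causes were not tested. No paired analysis was possible because each population has 1 sample. Differences of probe sets of the same gene had an SD of 0.286 over 197 genes, and those of all genes reaching the floor an SD of 0.281. The first is a spread between probe sets on the same 2 arrays, and it does not measure spread between arrays or samples. MDM4 and SESN1 lay within 0.286, and a larger difference is not thereby shown to exceed technical spread.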

Other observations

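Of the listed p53 targets and regulators, 19 were not measured by a single-symbol probe set. For 11 of these a probe set names the gene together with others, and the 16 such probe sets had differences from -0.31 to 0.71. The probe set annotated with PPM1D and ZNF184 had 8.90 in SP and 8.65 in NSP, and the one annotated with EP300 and MIR1281 had 8.84 and 8.56. The 2 listed genes of GDF15 signalling, the receptor gene GFRAL (3.91 in SP, 3.68 in NSP) and its partner RET (6.45, 6.40), both lay under the floor in J82.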
